A study of Ailuropoda melanoleuca with 25 samples.

Results

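The mitochondrial and fuel oxidation genes described here were 18 genes. They act in glycogen and glucose breakdown, fatty acid activation and import, pyruvate and lactate conversion, the respiratory chain, uncoupling, or the buffering of ATP. They were chosen from the study's list of tissue-specific DEGs as genes whose name begins with the usual prefix of a respiratory chain subunit, a fatty acid enzyme, a pyruvate, lactate, or citric acid cycle enzyme, a creatine kinase, a phosphofructokinase, a glycogen phosphorylase, or an uncoupling protein. The list holds 2814 genes, of which 1778 have a name, and the expression table holds 25376 genes, so that the 18 genes were among those with a name among the listed ones and not all genes of these pathways. All 18 were found in the expression table by their identifier. Because the list was made from differences between tissues, the difference between the tissue a gene was listed for and the other tissues chose the genes, and it is described without a test.

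RNA was sequenced from 5 tissues (heart, liver, spleen, lung, kidney) of each of 5 giant pandas, with 1 library for each tissue of each panda. Panda 1 was a female aged 27 years, panda 2 a female aged 9 years, pandas 3 and 4 were females aged 0.5 years, and panda 5 was a male aged 0.5 years. Coronavirus infection killed the 3 young pandas, pandas 1 and 2 died from different causes and not in the same year as them, and all tissue was collected after death and kept in liquid nitrogen. Age therefore cannot be told apart from the cause and the year of death.

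Cells oxidise fatty acids and pyruvate in mitochondria, where the respiratory chain turns the electrons released into a proton gradient and ATP synthase uses that gradient. Heart muscle works without pause and draws on fatty acids, lactate, and glucose, with creatine kinases buffering its ATP. The liver makes glucose for other organs, and the kidney tubule is rich in mitochondria that drive ion transport.

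The values were FPKM, the reads on a gene divided by its length and by the total of its library. The lengths recovered from the values were 243 bases for COX7A1, 294 for COX6A2, and 426 for NDUFA11. For the other genes described here they were 1002 to 2598 bases, so levels may be compared between genes only roughly. The total of counted reads ranged from 13149580 to 21383380 per library (median 16215829), and at these depths 3 reads on a gene of 1 kb equal 0.140 to 0.228 FPKM. Markers were used as checks of the tissues. The sum of 15 heart muscle markers ranged from 84476 to 101577 FPKM in the heart and from 3.51 to 236 FPKM elsewhere. That of 14 hepatocyte markers was 43286 to 105251 FPKM in the liver and 31.2 to 5579 FPKM elsewhere, with the highest in the lung. The lung had 15259 to 49703 FPKM of 7 lung epithelium markers and the spleen 7537 to 12673 FPKM of 8 B cell markers. A pair of libraries stood apart. The kidney of panda 4 had the lowest value of the 5 kidneys for all 10 tubule markers, with a sum of 1263 FPKM against 10070 to 13183 FPKM in the others, and for 47.0% of the genes expressed in the kidney. The liver of panda 3 was the lowest of the 5 livers for 64.7% of the genes expressed there. It was also the lowest for 11 of the 14 hepatocyte markers, although their sum in it was 81932.5 FPKM. These tissues hold several cell types, so fewer cells of a type and less RNA per cell cannot be told apart.

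The heart accounted for 13 listings, the kidney for 4, the liver for 3, the lung for 1, and the spleen for 0, which makes 21 listings because CKMT2 was listed for 2 tissues and ACSM2B for 3. In 16 of the 21 listings the listed tissue had a higher mean on the log2(FPKM + 1) scale than each of the other 4 tissues. PFKP in the liver and ACSL5 in the heart were lower than each, and CKMT2 in the kidney and ACSM2B in the liver and the lung lay between other tissues. All 5 libraries of the listed tissue lay outside the range of the other 20 libraries in 17 listings, with 15 above and 2 below. For the heart this held for 13 of 13 listings, where 12 genes were above and ACSL5 below, while 3.41% of all expressed genes had every heart library above the rest and 3.86% had every heart library below. For the liver the share of all expressed genes was 1.56% above and 8.35% below, for the lung 4.20% above, and for the kidney 2.27% above. The 18 genes together took 2.49% to 4.09% of the summed FPKM of a heart library, 0.290% to 0.480% of a kidney library, and between 0.0907% and 0.159% of a liver, spleen, or lung library.

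**Figure D1:**
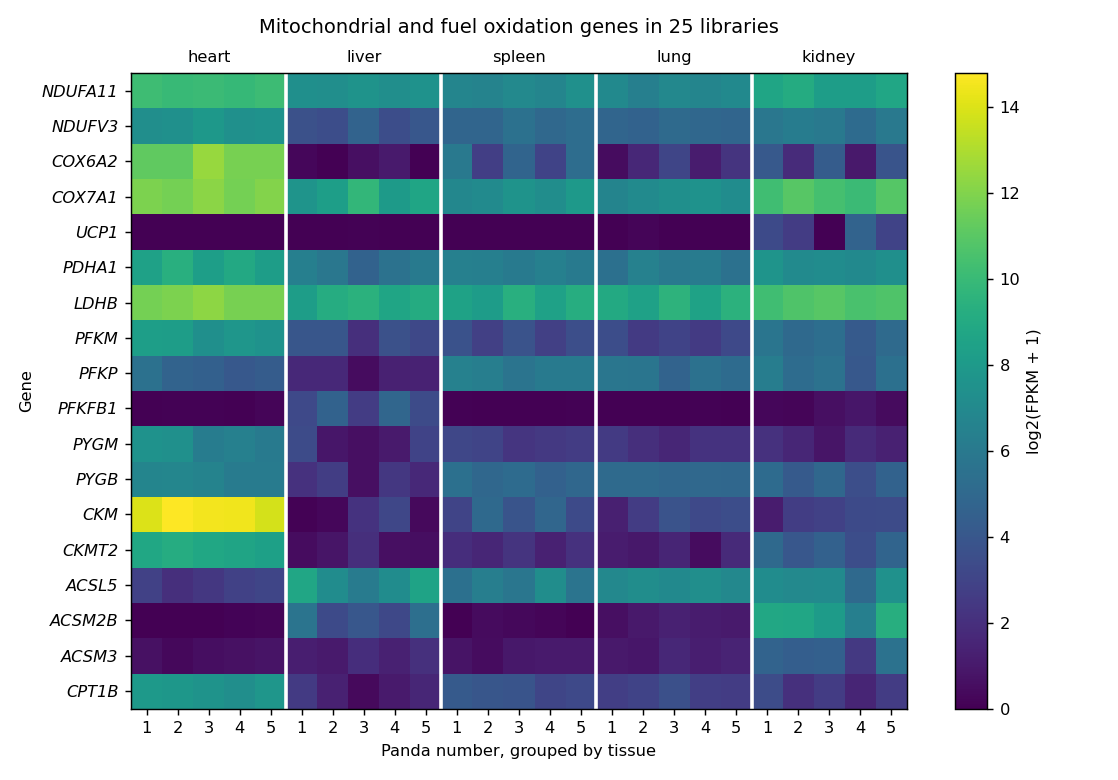
Level of each of the 18 genes (rows, grouped by pathway) in each of the 25 libraries (columns, pandas 1 to 5 within each tissue), as log2(FPKM + 1) from dark (0) to bright. CKM in the heart is brightest, ACSL5 is darkest in the heart, and UCP1 is dark outside the kidney.

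Genes of the list were chosen by the study at a log2 fold change beyond 2 in each comparison of their tissue, on its own scale of normalised counts. On the log2(FPKM + 1) scale, the difference from the nearest other tissue was beyond 2 in 14 of the 21 listings. The nearest above that limit was CKMT2 in the kidney, at 2.54, and the 7 below it were NDUFA11, NDUFV3, COX7A1, PDHA1, LDHB, and PYGB in the heart, at 1.47, 1.67, 1.39, 1.40, 1.23, and 1.48, and ACSM2B in the lung at 0.85. With TMM factors, which rescale each library by its typical gene, 19 of the 21 differences were beyond 2, and with quantile normalization and with a pseudocount of 0.1 it was 15 in each.

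Among the respiratory chain genes, 4 were listed, all for the heart. NDUFA11 and NDUFV3 are accessory subunits of NADH dehydrogenase (complex I). NDUFA11 stood at 1189, 1002, 1064, 961, and 1126 FPKM in the hearts of pandas 1 to 5 and at 412, 537, 296, 299, and 432 FPKM in the kidneys. The ranges were 155 to 193 FPKM in the liver, 95.8 to 168 FPKM in the spleen, and 82.7 to 130.3 FPKM in the lung, so that the kidneys were separate from the hearts above and the other tissues below. Its coefficient of variation over the 5 hearts was 8.61%, the smallest of the 12 genes that were higher in the heart. NDUFV3 was lower throughout, at 158, 169, 239, 172, and 183 FPKM in the heart and 57.8, 73.2, 63.2, 34.3, and 62.9 FPKM in the kidney. Its liver range of 10.2 to 24.9 FPKM was the lowest of the 5 tissues on FPKM, an order against the spleen and the lung that turned with TMM factors.

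COX6A2 and COX7A1 are the forms of cytochrome c oxidase (complex IV) subunits that are typical of heart and skeletal muscle. COX7A1 stood at 3699, 3303, 4814, 3359, and 4143 FPKM in the heart and at 1200.5, 1976, 1381, 1075, and 1878 FPKM in the kidney. In the liver it ranged from 201 to 872 FPKM, in the spleen from 114 to 244 FPKM, and in the lung from 102 to 186 FPKM. Every library was above 100 FPKM, and the kidneys lay above every liver, spleen, and lung. COX6A2 stood at 2347, 2352, 5781, 3494, and 3487 FPKM in the heart and at 0.182, 0, 0.549, 1.07, and 0 FPKM in the liver, with no read in 2 of the livers. In the spleen COX6A2 stood at 62.1, 5.82, 26.3, 6.76, and 38.3 FPKM, in the kidney at 16.3, 2.55, 19.0, 1.05, and 13.1 FPKM, and in the lung at 0.420, 2.07, 7.42, 1.16, and 3.66 FPKM. The mean of COX6A2 in the heart (3492 ± 1401 FPKM, SD, n = 5) was 125 times that in the spleen, whereas that of COX7A1 (3864 ± 628 FPKM) was 2.57 times that in the kidney.

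UCP1, which lets protons return across the inner mitochondrial membrane without making ATP and is best known from brown fat, was listed for the kidney. It stood at 9.12, 5.28, 0, 25.4, and 6.85 FPKM in the kidneys of pandas 1 to 5, which is 149, 107, 0, 481, and 135 reads. The kidney of panda 4 was the highest and that of panda 3 held no read, where 3 reads would be 0.161 FPKM. In the heart and the spleen none of the 5 libraries held a UCP1 read, in the liver 1 library held 1 read, and in the lung 1 library held 2 reads. Without the kidney of panda 4, the kidney mean was 5.31 ± 3.87 FPKM (SD, n = 4) in place of 9.32 ± 9.58 FPKM (n = 5). In the same kidney, PLIN4, a coat protein of fat droplets and the only gene of the 12 fat cell markers with a name in the list, stood at 14.2 FPKM, against 0.218 to 4.53 FPKM in the other 4 kidneys and 16.5 to 22.4 FPKM in the heart, for which it was listed. The part of other cells in the UCP1 values was not tested.

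**Figure D2:**
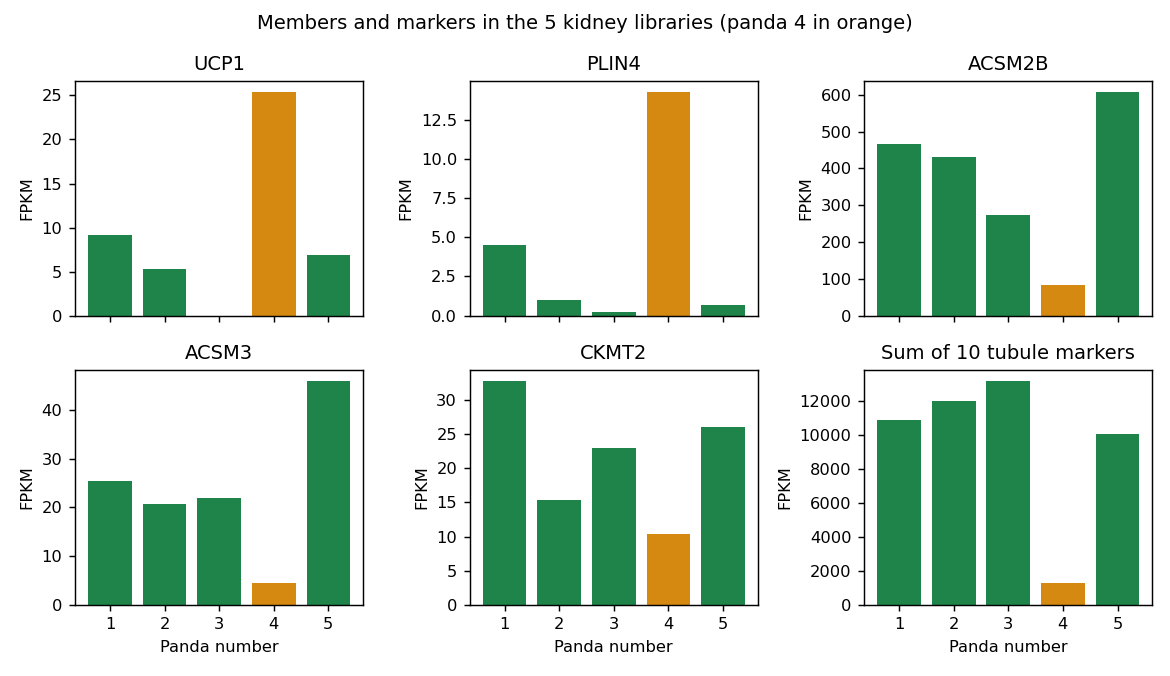
FPKM of UCP1, PLIN4, ACSM2B, ACSM3, and CKMT2, and the sum of 10 kidney tubule markers, in the 5 kidney libraries (1 bar per panda, panda 4 in orange). The kidney of panda 4 is the highest for UCP1 and PLIN4 and the lowest for ACSM2B, ACSM3, CKMT2, and the tubule markers.

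PDHA1 encodes a catalytic subunit of pyruvate dehydrogenase, which feeds pyruvate into the citric acid cycle, and LDHB the form of lactate dehydrogenase that is abundant in heart. PDHA1 stood at 351, 636, 311, 493, and 295 FPKM in the heart and at 197, 134, 142, 127, and 165 FPKM in the kidney. It ranged from 24.5 to 82.4 FPKM in the liver, from 63.7 to 85.9 FPKM in the spleen, and from 43.7 to 89.5 FPKM in the lung, which overlap each other. LDHB had the highest mean of the 18 genes in the liver, spleen, lung, and kidney, and it stood at 3277, 3725, 4851, 3386, and 3449.9 FPKM in the heart and at 1234, 1652, 1943, 1478, and 1648 FPKM in the kidney. Its means were 507 ± 157 FPKM in the liver, 446 ± 157 FPKM in the spleen, and 536 ± 186 FPKM in the lung (SD, n = 5 each). The means of both genes in the heart were 2.73 and 2.35 times those in the kidney.

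Phosphofructokinase commits glucose to glycolysis, and its muscle form PFKM and platelet form PFKP differed in their tissue patterns. PFKM stood at 305, 298, 166, 216, and 184 FPKM in the heart, at 52.4, 32.4, 40.2, 17.0, and 34.2 FPKM in the kidney, and at 14.7, 14.4, 2.98, 11.8, and 8.34 FPKM in the liver. PFKP was listed for its low level in the liver, at 2.26, 2.31, 0.431, 1.53, and 1.69 FPKM, against 88.5, 78.1, 51.5, 66.0, and 67.3 FPKM in the spleen and 77.3, 36.2, 46.3, 15.5, and 43.2 FPKM in the kidney. It ranged from 15.8 to 44.8 FPKM in the heart and from 25.1 to 55.6 FPKM in the lung. PFKL, a further form that RefSeq's annotation of a later panda assembly holds, was not among the genes described here. The shares below are therefore of this pair only, not of all phosphofructokinase. As a share of the summed FPKM of the pair, PFKM made up 87.2 to 93.2% in the heart, 83.1 to 88.5% in the liver, and 40.4 to 52.4% in the kidney. In the spleen the share was 7.18 to 19.6% and in the lung 8.24 to 21.4%, so the kidneys lay apart from both pairs of tissues. The heart and the liver shared a PFKM share above 83% although the mean level of PFKM was 234 ± 64.4 FPKM in the heart and 10.4 ± 4.88 FPKM in the liver (SD, n = 5). PFKFB1, the liver form of the enzyme that makes and removes the activator of phosphofructokinase, stood at 8.56, 24.3, 5.10, 28.3, and 9.33 FPKM in the liver and at no more than 0.861 FPKM in any other library. Its highest values outside the liver were in the kidney, at 0.214, 0.173, 0.500, 0.861, and 0.355 FPKM.

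Glycogen phosphorylase releases glucose from glycogen, and its muscle form (PYGM) and brain form (PYGB) were among the 18 genes. PYGL, which the same RefSeq annotation holds, was not, so the shares below are of this pair only. PYGM stood at 182, 171, 73.4, 86.1, and 67.9 FPKM in the heart, so that the hearts of the older pandas 1 and 2 were above those of the young pandas. PYGB stood at 106, 110.2, 96.7, 71.3, and 70.6 FPKM in the same hearts. Outside the heart PYGM was below 10 FPKM in every library, with 9.61, 0.861, 0.532, 1.09, and 6.77 FPKM in the liver. PYGB was 31.9 ± 7.36 FPKM in the spleen, 31.4 ± 2.06 FPKM in the lung, 23.1 ± 9.50 FPKM in the kidney, and 3.16 ± 1.88 FPKM in the liver (SD, n = 5). PYGM made up 43.2 to 63.3% of the pair in the heart and 9.73 to 19.8%, 6.36 to 12.1%, and 2.55 to 18.3% in the spleen, lung, and kidney. In the liver the share ranged from 13.8 to 75.3%, with the livers of pandas 1 and 5 highest, and both genes were low there.

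**Figure D3:**
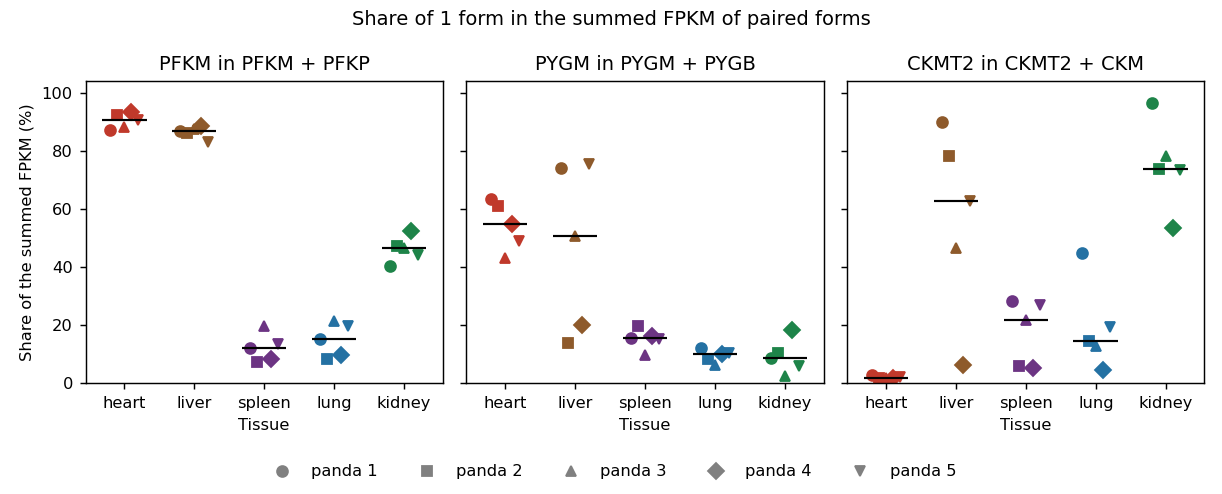
Share (%) of PFKM in PFKM + PFKP, of PYGM in PYGM + PYGB, and of CKMT2 in CKMT2 + CKM, from FPKM. The further forms PFKL, PYGL, and CKB are not part of these shares. Each point is 1 library, its shape the panda, and the bar the median of 5. The PFKM share separates heart and liver, kidney, and spleen and lung, and the CKMT2 share is lowest in the heart.

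Creatine kinases pass the phosphate of ATP to creatine, in the cytosol of muscle by CKM and at the mitochondrion of muscle by CKMT2. CKM was the most abundant of the 18 genes in the heart, at 16327, 28177, 23233, 22690.5, and 14822 FPKM, which was 1.70% to 3.23% of all counted reads of a heart library. In the liver it stood at 0.0468, 0.216, 3.43, 7.94, and 0.286 FPKM and in the spleen at 7.26, 32.8, 13.3, 28.6, and 8.98 FPKM. Its mean in the heart (21050.0 ± 5462 FPKM, SD, n = 5) was 1157 times that in the spleen, the next tissue. CKMT2 stood at 451, 563, 440.5, 388, and 334 FPKM in the heart and at 32.8, 15.3, 23.0, 10.4, and 26.1 FPKM in the kidney, and at no more than 3.66 FPKM in the liver, spleen, and lung. It made up 1.68 to 2.69% of the pair in the heart and 53.3 to 96.5% in the kidney, where the level of CKM was 1.19 to 9.47 FPKM. CKB, the brain form of creatine kinase, is not part of this share and stood at 192 to 408 FPKM in the kidney, above both. In RefSeq's annotation of a later panda assembly, CKMT2 overlaps RNA genes without a coding sequence, PFKM overlaps SENP1, and PDHA1 overlaps MAP3K15. The counting used HTSeq's default settings on libraries of a kit that does not mark strand, so reads of such neighbours cannot be told apart by strand and the values of these 3 genes are uncertain to that extent. COX6A2, COX7A1, and ACSM2B were not found by name in that annotation, so their neighbours could not be checked.

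Fatty acids are activated by acyl-CoA synthetases before oxidation, and long chains then enter mitochondria through carnitine palmitoyltransferase. CPT1B, the muscle form of that transferase, stood at 257, 225, 189, 158, and 219 FPKM in the heart and at 16.9, 14.2, 13.5, 7.65, and 8.78 FPKM in the spleen. It ranged from 5.27 to 11.1 FPKM in the lung, 1.91 to 9.71 FPKM in the kidney, and 0.301 to 4.60 FPKM in the liver. ACSL5, a long-chain acyl-CoA synthetase, was listed for its low level in the heart and stood at 6.19, 3.03, 4.29, 6.38, and 7.43 FPKM in the heart. In the liver it stood at 421, 144, 69.3, 143, and 385 FPKM, and the lowest value outside the heart was 32.4 FPKM, in the kidney of panda 4. In the lung, the tissue with the smallest coefficient of variation, ACSL5 was at 135 ± 18.0 FPKM (SD, n = 5).

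ACSM2B and ACSM3 belong to the medium-chain acyl-CoA synthetases of the mitochondrial matrix. ACSM2B stood at 466, 431, 274, 82.8, and 607 FPKM in the kidney, at 50.1, 8.83, 15.2, 8.39, and 40.7 FPKM in the liver, and at 0.533, 1.05, 1.55, 1.22, and 1.09 FPKM in the lung. It was below 0.35 FPKM in every heart and spleen library. The order kidney, liver, lung, spleen, heart was that of the means, with the spleen and the heart both near 0, and liver and kidney did not overlap. ACSM3 stood at 25.4, 20.6, 21.9, 4.48, and 45.9 FPKM in the kidney and at no more than 3.19 FPKM elsewhere, with the highest of these in the liver. Without the kidney of panda 4, which was the lowest for both, the kidney means were 444 ± 137 FPKM for ACSM2B and 28.4 ± 11.8 FPKM for ACSM3 (SD, n = 4), in place of 372 ± 200.4 and 23.7 ± 14.8 FPKM (n = 5). Medium-chain synthetase genes are close relatives that lie side by side in mammals, and reads shared between copies could not be told apart.

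Tissue pairs that leave out every tissue a gene was listed for were not used to choose it, and in these the genes were tested with limma on log2(FPKM + 1). Of 100 such comparisons of 1 gene in 1 pair, 86 passed the filter on low values, which was a mean over 1 FPKM in either tissue of the pair, and 46 had a Benjamini-Hochberg adjusted p below 0.05. These were 9 of 14 genes between the liver and the spleen (76.4% of all genes tested), 7 of 14 between the liver and the lung (74.2%), and 8 of 12 between the liver and the kidney (48.7%). They were 3 of 15 between the spleen and the lung (28.9%), 9 of 13 between the spleen and the kidney (52.3%), and 6 of 13 between the lung and the kidney (46.5%). Of the pairs with the heart they were 1 of 1 against the liver (41.7%), 1 of 1 against the spleen (82.0%), 2 of 2 against the lung (80.9%), and 0 of 1 against the kidney (58.4%). A DEG also needed a log2 difference beyond 2, and 12 comparisons of 6 genes met both. Comparisons of 1 tissue with several others share its libraries.

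The heart genes were tested between the kidney and the liver, spleen, and lung, for the 11 genes that were higher in the heart and not listed for the kidney. In the kidney against the spleen, 6 of 11 were higher in the kidney and 3 lower at an adjusted p below 0.05 (limma, Benjamini-Hochberg), where 17.0% of all genes tested were higher and 35.3% lower in the kidney. Against the lung, 6 of 11 were higher and 0 lower, where 13.6% of all genes were higher and 33.0% lower. Against the liver, 8 of 11 were higher and 0 lower, where 44.1% of all genes were higher and 4.63% lower. The 6 genes higher in the kidney in all 3 comparisons were NDUFA11, NDUFV3, COX7A1, PDHA1, LDHB, and PFKM.

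For COX7A1, kidney minus spleen was 3.16 ± 0.26 (SE, adjusted p = 1.02e-06) and kidney minus lung 3.34 ± 0.25 (adjusted p = 6.02e-07), both DEGs. For LDHB the difference was 1.89 ± 0.26 against the spleen (limma, adjusted p = 7.07e-05) and for NDUFA11 it was 1.70 ± 0.23 (adjusted p = 7.25e-05). PFKM was a DEG against the lung, at 2.15 ± 0.32 (limma, adjusted p = 1.77e-04). The genes lower in the kidney than in the spleen were PYGM at -1.19 ± 0.30, CKM at -1.35 ± 0.50, and CPT1B at -1.22 ± 0.36 (limma, adjusted p = 0.00530, 0.0373, and 0.0134). With the panda as a block, 5 genes were lower in the kidney than in the spleen, COX6A2 and PYGB being added, and PYGM was also lower than in the lung. CKM did not pass with TMM factors (adjusted p = 0.210 for limma), with quantile normalization, or without a filter on low values. Nor did CKM pass without any one of the spleens of pandas 2, 3, and 4 or the kidneys of pandas 1, 2, and 3, and NDUFV3 did not pass without the spleen of panda 1.

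The scaling of the libraries bears on the liver comparison. On FPKM the median of all genes was 0.89 higher in the kidney than in the liver on the log2 scale and was 0.41 lower than in the spleen and 0.43 lower than in the lung, and with TMM factors these medians were 0.056, -0.00102, and 0.00148. With TMM factors only COX6A2 and PYGB of the 11 genes were higher in the kidney than in the liver, and NDUFA11, LDHB, and the others did not pass the test, whereas with quantile normalization 8 passed as on FPKM. The TMM factor was 0.201 for the liver of panda 3 and 0.530 to 0.748 for the other livers. The part of this library in the change with TMM factors was not tested. Against the spleen and the lung the same 6 genes were higher in the kidney with TMM factors and with quantile normalization, and COX6A2 joined them against the lung. With TMM factors the share of all genes that were higher in the kidney was 16.5% against the liver, 25.6% against the spleen, and 22.9% against the lung, and the share that were lower was 10.5%, 22.3%, and 19.1%. Such shares are not given here for quantile normalization.

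**Figure D4:**
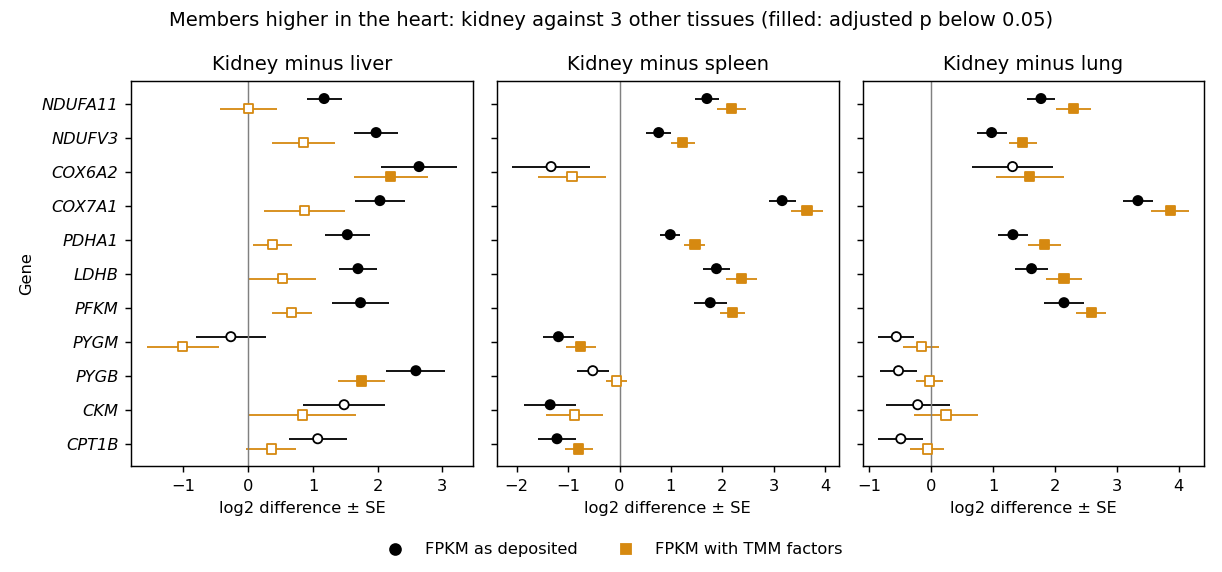
Kidney minus liver, spleen, and lung (panels) for the 11 genes higher in the heart and not listed for the kidney (rows), as log2(FPKM + 1) differences ± SE from limma, on deposited FPKM (black circles) and with TMM factors (orange squares). Filled points have an adjusted p below 0.05. From NDUFA11 to PFKM all lie to the right against the lung, and all but COX6A2 do so against the spleen, and only COX6A2 and PYGB are filled against the liver with TMM factors.

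Between the liver and the spleen, 4 of 14 genes tested were DEGs (29.9% of all genes), between the liver and the lung 1 of 14 (29.0%), and between the liver and the kidney 3 of 12 (14.0%). Between the spleen and the lung it was 1 of 15 (6.88%), between the spleen and the kidney 1 of 13 (14.3%), and between the lung and the kidney 2 of 13 (12.2%). Of the pairs with the heart, 0 of 1 gene tested was a DEG against the liver (15.7%), 0 of 1 against the spleen (23.3%), 0 of 2 against the lung (22.9%), and 0 of 1 against the kidney (15.3%), all 5 differences being below 2 in size. PYGB was lower in the liver than in the spleen (-3.11 ± 0.38), the lung (-3.11 ± 0.37), and the kidney (-2.59 ± 0.46; SE, limma, adjusted p = 2.30e-05, 1.80e-05, and 8.53e-04). CPT1B was lower in the liver than in the spleen by a log2 difference of -2.29 ± 0.38 (limma, adjusted p = 1.99e-04), and CKM likewise by -2.83 ± 0.63 (adjusted p = 0.00158). With TMM factors the 3 PYGB differences shrank to -1.81, -1.77, and -1.75, still at an adjusted p below 0.05, and CKM no longer passed (-1.72, adjusted p = 0.101). Of the 12 DEG calls, 5 held under both TMM factors and quantile normalization, namely COX6A2 in the spleen against the liver and the lung, COX7A1 in the kidney against the spleen and the lung, and PFKM in the kidney against the lung. The call of COX7A1 between the liver and the kidney held in 5 of 10 fits with 1 library left out.

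COX6A2 was higher in the spleen than in the liver and the lung, with liver minus spleen at -3.97 ± 0.58 and spleen minus lung at 2.65 ± 0.65 (SE, limma, adjusted p = 8.02e-05 and 0.00882), and higher in the kidney than in the liver, with liver minus kidney at -2.64 ± 0.59 (limma, adjusted p = 0.00370). Heart muscle transcripts were compared beside it. MYL2, the regulatory light chain of ventricular myosin, stood at 0, 0.863, 14.8, 10.3, and 3.81 FPKM in the spleens of pandas 1 to 5, while COX6A2 was highest in the spleen of panda 1, where MYL2 held no read and 4 of the 15 heart muscle markers were at 0. PLN, a regulator of the calcium pump in heart and smooth muscle, stood at 124, 98.7, 119, 166, and 220.1 FPKM in the spleen and at 0.344 to 64.8 FPKM in the liver, lung, and kidney. MYH11, the smooth muscle myosin, stood at 101, 56.6, 39.4, 43.1, and 69.1 FPKM in the spleen, 1.26 FPKM on average in the liver, and 45.3 FPKM in the lung. Without PLN the sum of the heart muscle markers was 4.96 to 47.8 FPKM in the spleen and 81754 to 99178 FPKM in the heart. The part of muscle cells in the spleen values was not tested.

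CKM outside the heart was set beside MYL2 in the same way. In the heart CKM was 0.474 to 1.01 times MYL2. In the 12 libraries of the young pandas outside the heart the ratio was 0.460 to 2.77, with MYL2 at 0.620 to 15.9 FPKM, and the lowest rested on 7 reads of CKM and 8 of MYL2 in the liver of panda 5. In the 8 libraries of the older pandas outside the heart MYL2 was at 0 to 0.863 FPKM. The liver of panda 2 and the lungs and kidneys of pandas 1 and 2 held 1 to 3 reads of MYL2 and 5 to 108 reads of CKM, too few of MYL2 for a ratio. The spleen of panda 1 held 114 reads of CKM and 0 of MYL2, and the spleen of panda 2 held 506 and 7.

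**Figure D5:**
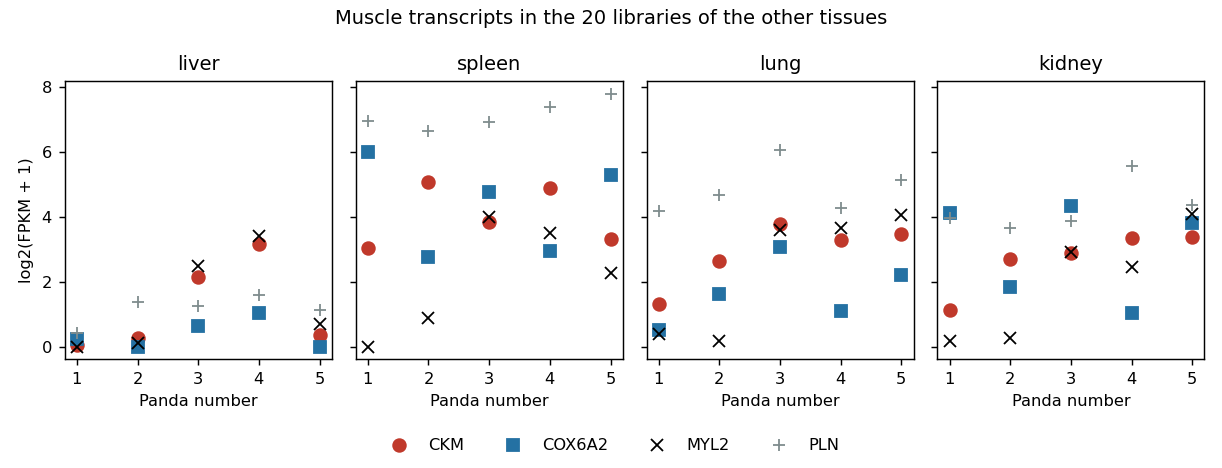
CKM, COX6A2, and the heart muscle transcripts MYL2 and PLN in the 20 liver, spleen, lung, and kidney libraries, as log2(FPKM + 1), by panda. MYL2 is at most 0.863 FPKM in pandas 1 and 2, while COX6A2 is highest in the spleen of panda 1.

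The young pandas were compared with the older ones in each tissue, a contrast that was not used to choose the genes, with limma on all 25 libraries (3 young against 2 older animals per tissue, adjusted p below 0.05). Of the genes tested, 0 of 14 were called in the heart (0.00790% of all genes), 0 of 16 in the liver (0%), 0 of 14 in the spleen (0.0326%), 0 of 16 in the lung (0%), and 0 of 17 in the kidney (0%). At an unadjusted p below 0.05 there were 0, 2, 0, 1, and 0 genes, where 3.40%, 14.3%, 4.49%, 1.52%, and 7.07% of all genes had such a p, and with limma-voom on recovered reads 0 were called and 1, 2, 0, 0, and 0 had such a p. This fit pooled the spread over the 5 tissues, with no term for the panda. On all genes, 430, 1769, 689, 241, and 1073 had such a p. With the 5 libraries of each tissue alone (limma), it was 558, 87, 1628, 180, and 456, so these shares depend on the pooling.

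The largest of the 14 differences in the heart was that of PYGM, which was -1.22 ± 0.60 (young minus older, log2, SE, limma, adjusted p close to 1). All 3 young hearts were below both older hearts for PYGM, PFKM, PFKP, PYGB, CKMT2, and CPT1B, 6 of the 14 genes, against 11.4% of all genes expressed in the heart, and above them for NDUFV3 and COX6A2, 2 of 14, against 6.76%. The heart of panda 1 was the highest of the 5 for 40.2% of all expressed genes. In the spleen 3 of 14 genes were above (NDUFA11, NDUFV3, and COX7A1, with 11.5% of all genes) and 3 below (PFKP, PYGM, and CPT1B, with 15.8%). In the liver 2 of 16 were above, CKM and ACSM3 (2.74%), and 2 below (15.2%), in the lung 5 of 16 above (7.85%) and 2 below (5.43%), and in the kidney 1 of 17 above (7.65%) and 0 below (12.1%). PFKP was below in the heart, liver, spleen, and lung.

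CKM was above in the young pandas without overlap in the lung and kidney. In the liver the lowest young library held 7 reads of CKM and the highest older one 5, too few to order them. The differences were 1.72 ± 0.69 in the liver, 1.53 ± 0.69 in the lung, and 1.30 ± 0.69 in the kidney (log2, SE, limma, adjusted p = 0.292 for the liver and 0.742 for the kidney, and close to 1 for the lung). The heart muscle transcript MYL2 was also higher in the young libraries of these tissues, without overlap. The same held for MYL2 in the spleen, at 3.81 to 14.8 FPKM against 0 and 0.863 FPKM. The CKM difference in the spleen was -0.048 ± 0.69 (young minus older, log2, SE, limma, adjusted p close to 1). The sum of the heart muscle markers without PLN separated young from older in the lung, and narrowly in the liver. In the kidney it did not. There it was 51.6 and 53.2 FPKM in pandas 1 and 2, and 61.3, 22.7, and 104 FPKM in pandas 3 to 5. That sum includes MYL3, which was also listed for the kidney (mean 28.3 FPKM there). The part of heart muscle transcripts in the CKM differences was not tested. COX7A1 in the liver was 0.86 ± 0.40 (limma, adjusted p = 0.338), and it passed only when the liver of panda 4 was left out (1.26 ± 0.39, adjusted p = 0.0396). Whether age differences varied between tissues was tested within pandas, and 0 of the 18 genes passed (limma F test, 0% of all genes), with 0 at an unadjusted p below 0.05.

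Other genes of these pathways were taken from lists of the respiratory chain, fatty acid oxidation and related fuels, the citric acid cycle, glycolysis, glycogen, creatine kinases, uncoupling, and their regulators, and 18 of them had a name in the study's list. In tissue pairs that leave out their listed tissues, 11 of 76 tests were DEGs, of 6 of these genes (14.5%, where 6.88% to 29.9% of all genes were DEGs in a pair), and between young and older pandas 0 of 66 tests passed, with 2 at an unadjusted p below 0.05 (limma). SLC25A4, which exchanges ATP for ADP across the inner membrane, was listed for the heart (2981 ± 417 FPKM) and was next highest in the kidney (304 ± 77.0 FPKM). It was a DEG in the kidney against the spleen and the lung. CKB, the brain form of creatine kinase, was listed for its low level in the heart (2.54 ± 1.29 FPKM) and was highest in the kidney (286 ± 95.9 FPKM). It was a DEG in the kidney against the liver, the spleen, and the lung. PCK2, the mitochondrial enzyme that turns oxaloacetate into phosphoenolpyruvate, stood at 161 ± 102 FPKM in the liver and was a DEG in the spleen and the lung against the heart, which had 1.14 ± 0.443 FPKM.

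In glycolysis, PGAM2 and ENO3, the muscle forms of phosphoglycerate mutase and enolase, were listed for the heart with 819 ± 175 and 1329 ± 166 FPKM (SD, n = 5). TIGAR, which lowers an activator of phosphofructokinase, and ALDOC, the brain form of aldolase, were listed for the heart at 54.3 ± 26.1 and 7.40 ± 5.11 FPKM. GCKR, the inhibitor of liver glucokinase, stood at 24.2 ± 24.2 FPKM in the liver. For glycogen, GYS2, the liver form of glycogen synthase, stood at 28.5 ± 9.19 FPKM in the liver, and GYG1, which primes glycogen, and PHKG1, a muscle subunit of phosphorylase kinase, were listed for the heart at 127 ± 33.9 and 13.4 ± 5.47 FPKM. Of 7 named genes of fatty acid activation and oxidation, the 3 with the highest means were all listed for the liver, ACOX2 also for the spleen and the kidney. They were ACOT12, an acyl-CoA thioesterase, at 135 ± 98.3 FPKM, ACOX2, a peroxisomal oxidase of branched chains, at 125 ± 75.3 FPKM, and PECR, a peroxisomal reductase, at 111 ± 60.4 FPKM. The other 4 had their highest tissue means between 20.8 and 74.9 FPKM.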

How the data were processed

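Libraries were made from total RNA of 25 tissue samples and sequenced. HISAT2 was used by the authors for alignment to the ailMel1 assembly, Cufflinks for transcripts beyond the annotation, and HTSeq (union mode, otherwise default settings) for counting. The deposited values are FPKM for 25376 genes in every library, and no normalization beyond FPKM is given in the sources used here. FPKM depends on what else a library holds, so values were also scaled. The authors called DEGs with DESeq; FPKM values are not counts, so limma 3.58.1 (R 4.3.3) with a variance trend on log2(FPKM + 1) was used here, on genes with a mean above 1 FPKM in a compared tissue, with Benjamini-Hochberg adjustment over all genes tested. Python 3.11.15 with pandas 2.3.3 was used for the rest.

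Whole reads were recovered from the steps of the low FPKM values for 24207 of 24207 genes above 0 in a library (within 0.05 reads), and they were used for depth, for reads per gene, and for limma-voom. The fit was tested on simulated data. Floors are 3 reads and cover counting error only.

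The genes and the lists of markers and pathways were chosen with earlier results of these data known. All 18 genes are named, and 1 further gene that met the rule is not reported here; other genes are named from the lists, all where a list had 5 or fewer with a name and otherwise the 3 with the highest mean. Names came from the study's list of tissue-specific DEGs. Lists of skeletal muscle, smooth muscle, red cell, and fat cell markers had 1 named gene each and were not used as lists; CASQ1 reached at most 21.9 FPKM (heart) and SLC4A1 at most 38.1 FPKM (kidney).

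Samples were grouped by the labelled tissue. Libraries with the same number came from the same panda by their labels (age, sex, and date of death). After removal of tissue means, libraries of the same panda correlated at 0.0870 to 0.537, with 49 of 50 above 0.1. Libraries of different pandas and tissues correlated at -0.490 to 0.398, with 44 of 200 above 0.1, so the ranges overlapped. Libraries are 1 per animal and tissue, so p-values of tissue pairs measure the spread between 5 animals of different ages. Those of the age contrasts within a tissue used a spread pooled over the 5 tissues, in which each panda enters 5 times. Alternatives were TMM factors, quantile normalization, a pseudocount of 0.1, no filter, a block for the panda, one joint fit of all libraries, limma-voom, and each library left out in turn. For age, the 5 libraries of each tissue were also fitted alone. Sequences were not used here, and genome positions were used only to find neighbours in RefSeq's annotation of a later panda assembly.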

Additional observations from a re-analysis of the deposited data

Results flagged for a closer look

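Over 77 groups of 5 libraries with a mean above 1 FPKM, 3 held a library that stood apart from the other 4, judged by its gap to the nearest library over the range of all 5 (Dixon's limit of 0.71). Chance alone gives about 3.85, or 1 in 20 groups. LDHB was 4851 FPKM in the heart of panda 3, against 3277 to 3725 FPKM in the other hearts. CKMT2 was 2.97 FPKM in the liver of panda 3, against 0.424 to 0.782 FPKM in the other livers. CPT1B was 11.1 FPKM in the lung of panda 3, against 5.27 to 6.79 FPKM in the other lungs. The causes were not tested. No difference of the age effect between tissues passed the test.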

How the results depend on the processing

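The number of DEG calls in pairs that were not used to choose the genes was 12. It was 17 with TMM factors, 7 with quantile normalization, 16 with a pseudocount of 0.1, 12 without a filter, 12 with all libraries in one fit, 17 with limma-voom on recovered reads, and 11 to 13 with 1 library left out. With the panda as a replicate block it was 12, and none of the 46 differences with an adjusted p below 0.05 was lost, nor was any with a pseudocount of 0.1 or limma-voom, whereas 5 were lost with all libraries in one fit and 1 without a filter. Of the 12 calls, 6 were kept with TMM factors and 5 with quantile normalization. Calls over all genes also changed with the setting. Between the liver and the spleen (16201 genes tested) there were 4841 DEGs on FPKM, 2793 with TMM factors, and 2337 with quantile normalization. There were 8250 with a pseudocount of 0.1 and 8543 with limma-voom. Between the spleen and the lung (16908 genes tested) these counts were 1163, 950, 1001, 2352, and 2345. The number of listings without overlap was 17, 16 with either scaling, where ACSM3 in the kidney overlapped, and 17 to 18 with 1 library left out. The age counts were 0 in all settings but one, since left-out libraries gave 0 to 0 in the heart, spleen, lung, and kidney and 0 to 1 in the liver, where 1 (COX7A1) passed without the liver of panda 4. For the interaction, TMM factors and quantile normalization, chosen after the data were seen, also gave 0, and with TMM factors 1 gene (CKM) had an unadjusted p below 0.05.

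Some smaller differences changed sign with the scaling. With TMM factors, PFKP in heart minus lung was 0.55, NDUFV3 was 0.37 in liver minus spleen and 0.62 in liver minus lung, and CKMT2 in liver minus spleen was 0.086. With quantile normalization, PFKP in heart minus lung was 0.36, ACSM3 in heart minus lung 0.21, CKMT2 in liver minus spleen 0.31, and NDUFV3 in liver minus lung 0.22. These 8 values did not pass the test. Of the 46 differences, 14 no longer passed with TMM factors and 7 with quantile normalization, beside those that changed sign. Reads of UCP1 outside the kidney and of CKM in the livers of pandas 1, 2, and 5 were at most 7, too few to order these libraries. The cause was not tested.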
